A study of Mus musculus with 4 samples.

Results

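Transcripts of 31 receptor tyrosine kinases outside the MET, ERBB, FGF, insulin and endothelial families were measured in 4 mammary gland tumours of mice of the genotype MMTV-R26Met. The set was defined by gene symbol and holds the PDGF, KIT and FLT3 receptors, AXL and TYRO3, the TRK receptors, RET, ALK, LTK and ROS1, the discoidin domain receptors, the ROR, RYK, PTK7 and MuSK group, 11 EPH receptors and STYK1. All 31 symbols were found among the 28440 genes of the count table. The line is used as a model of triple-negative breast cancer; as background, it carries a Met transgene at the Rosa26 locus that Cre recombinase, driven by the mouse mammary tumour virus promoter, switches on in the mammary epithelium. The labels give neither age nor treatment, name no control tissue, and leave unstated if each tumour is from its own mouse. The 4 tumours therefore form 1 group, each is given by its number, and every p-value describes the spread between these tumours only. Libraries held 35220504 to 42809015 counts. Marker genes of luminal epithelium (Krt8, Krt18, Krt19, Epcam and Cdh1) summed to 2288 to 3864 CPM (the count relative to library size, with libraries scaled to each other) in the 4 tumours, and the leukocyte gene Ptprc had 67.2 to 93.3 CPM. In bulk tissue, fewer cells of a type and less RNA per cell cannot be told apart.

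Receptor tyrosine kinases span the cell membrane, bind a ligand outside the cell and, once paired, phosphorylate each other and the adaptor proteins that carry the signal on. EPH receptors are the most numerous family of these kinases and bind ephrins, which are themselves fixed to the membrane of neighbouring cells, so that signals can pass both ways at a cell contact. In the mammary gland, KIT is known as a receptor of luminal progenitor cells, DDR1 as a collagen receptor of the epithelium, and EPHB4 and EPHA2 as receptors that act in duct growth. Several members, among them PTK7, RYK and EPHB6, carry kinase domains without catalytic activity.

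The set was led by Ptk7, Kit, Ddr1, Ephb4, Ryk and Epha2. Because longer transcripts collect more reads, levels were compared between genes as CPM per kb of exon. On that scale the mean level was 62.1 for Ptk7, a receptor of planar cell polarity, and 53.2 for Kit, the receptor of stem cell factor. Ptk7 lay above 96.0% and Kit above 95.2% of the genes with an exon length. The mean level per kb was 33.4 for Ddr1, 33.0 for Ephb4, 31.4 for Ryk and 29.8 for Epha2, and their ranges over the tumours overlapped. Axl followed at 20.8 and Pdgfrb at 15.4 CPM per kb. Ptk7, Kit, Ddr1, Ephb4, Ryk and Epha2 held 67.0, 73.2, 73.6 and 70.3% of the summed level per kb of all 31 members in tumours 1 to 4. At the other end stood Musk (0.173 CPM per kb), Flt3 (0.128), Ntrk3 (0.0141) and Alk (0.00431), and Ros1 had 0 counts in all 4 tumours. The order of neighbours depends on the length used. Per kb of coding sequence the mean level was 95.2 for Kit and 82.5 for Ptk7, so these 2 changed places, and Ntrk2 had 2.19 CPM per kb of exon but 14.1 CPM per kb of coding sequence.

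**Figure D1:**
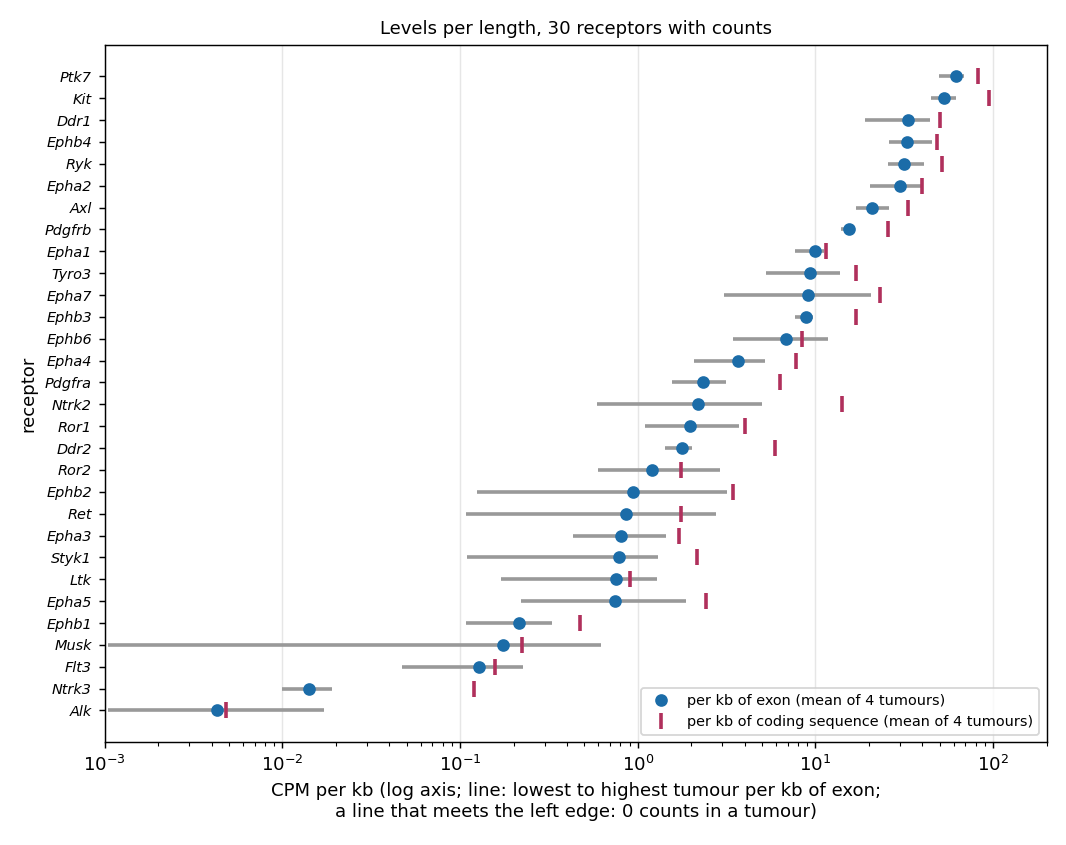
Levels per length of the 30 receptors with counts, on a log axis of CPM per kb. Points are means of the 4 tumours per kb of exon, lines run from the lowest to the highest tumour, and upright marks are means per kb of coding sequence; Ptk7 and Kit lead on either length, and Alk is lowest.

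Together the 31 members held 0.161, 0.155, 0.170 and 0.144% of the counts of tumours 1 to 4. The exact binomial intervals (95%) of these shares did not overlap, the closest being 0.160 to 0.162% in tumour 1 and 0.154 to 0.157% in tumour 2. Such intervals cover counting error only. By family, the ROR, RYK, PTK7 and MuSK group made up 28.5 ± 4.98% of the summed level per kb, the PDGF, KIT and FLT3 receptors 20.8 ± 1.42%, the EPHA receptors 15.8 ± 5.22%, the EPHB receptors 14.6 ± 1.57%, the discoidin domain receptors 10.2 ± 3.09% and AXL with TYRO3 8.88 ± 2.27% (SD, n = 4). The TRK receptors (0.647 ± 0.602%), the RET, ALK, LTK and ROS1 group (0.490 ± 0.527%) and Styk1 (0.224 ± 0.140%) made up the remainder (SD, n = 4).

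The DNA before the transcription start is shown for a receptor that was abundant in all tumours (Kit), for a pair of receptors highest in tumour 1 (Epha7 and Ntrk2) and for a receptor highest in tumour 3 (Ror2). Sequences are from RefSeq (GRCm38.p6), read 5′ to 3′ on the strand of the gene, and end at the base before the outermost annotated start. Kit lies at chr5:75574737-75574986 (plus strand), Epha7 at chr4:28812881-28813065 (plus strand), Ntrk2 at chr13:58806319-58806471 (plus strand) and Ror2 at chr13:53286125-53286374 (minus strand), where each stretch is the DNA directly before the gene. Capitals mark 3 motifs, each searched on both strands. The GC box is GGGCGG, which reads CCGCCC where it lies on the other strand. The TATA box is spelled TATAAA in the search. The AP-1 motif was searched as TGANTCA.
Kit: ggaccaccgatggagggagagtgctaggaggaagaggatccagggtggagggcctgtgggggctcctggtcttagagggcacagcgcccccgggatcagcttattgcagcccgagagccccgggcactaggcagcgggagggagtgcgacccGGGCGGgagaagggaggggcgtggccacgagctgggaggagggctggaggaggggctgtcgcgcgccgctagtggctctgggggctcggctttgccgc
Epha7: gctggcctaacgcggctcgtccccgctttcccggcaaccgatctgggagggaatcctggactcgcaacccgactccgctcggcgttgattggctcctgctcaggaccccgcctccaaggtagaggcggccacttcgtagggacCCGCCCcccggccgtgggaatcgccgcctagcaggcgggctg
Ntrk2: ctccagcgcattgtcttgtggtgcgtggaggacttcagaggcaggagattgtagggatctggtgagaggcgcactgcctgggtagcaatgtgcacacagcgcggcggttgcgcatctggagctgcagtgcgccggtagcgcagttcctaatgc
Ror2: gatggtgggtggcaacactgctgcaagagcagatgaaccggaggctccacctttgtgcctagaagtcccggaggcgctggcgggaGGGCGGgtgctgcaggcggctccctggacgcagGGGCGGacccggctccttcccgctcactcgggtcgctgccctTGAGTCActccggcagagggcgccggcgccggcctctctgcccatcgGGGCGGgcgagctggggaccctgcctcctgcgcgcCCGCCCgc
The stretches of Kit and Epha7 each held 1 GC box, that of Ntrk2 held none of the 3 motifs, and that of Ror2 held 4 GC boxes and 1 AP-1 motif. RefSeq windows were matched for 27 members, with 32 windows of 250 bases before a start. A GC box stood in 22 of the 32 windows (68.8%), against 42.6% of the 21263 windows of protein-coding genes and 32.7% of all 32851 windows. The windows of Kit overlap each other, as do those of Epha7, so their GC boxes are counted more than once. By gene, 18 of the 27 members had a GC box in a window. An AP-1 motif stood in 2 windows of members, against 6.13% of the coding windows, and a TATA box in 2, against 11.6%. The median number of CpG dinucleotides per window was 15 in members and 10 in coding genes. A match is a description of the letters and not a site at which a factor was shown to bind.

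Receptors that set tumours apart were sought with edgeR, which compared each gene's spread between tumours with that of genes of like expression (threshold 0.05, p-values adjusted by Benjamini-Hochberg across the 15808 genes with enough counts). Of the 31 members, 26 had enough counts in all 4 tumours to be tested, and Flt3, Ntrk3, Alk, Ros1 and Musk did not. The test was passed by 4 of the 26, namely Ephb2, Ret, Ntrk2 and Epha7, against 3.63% of all genes tested. With 26 genes tested, the count of 4 is small, and it was 1 without tumour 4, 2 without tumour 1, 1 by Holm adjustment and 0 by DESeq2's rule for dispersion outliers. At an unadjusted p of 0.05, 6 of the 26 passed, against 8.74% of all genes tested. The highest tumour exceeded the lowest by more than 2 times in 16 of the 26, against 36.1% of all genes tested, and the median ratio of highest to lowest was 2.53 in these members and 1.72 over all genes tested. No tumour held most of the maxima. Tumours 1, 3 and 4 were each highest for 7 of the 26 members and tumour 2 for 5, against 22.9, 29.7, 28.5 and 18.9% of all genes tested for tumours 1, 3, 4 and 2.

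**Figure D2:**
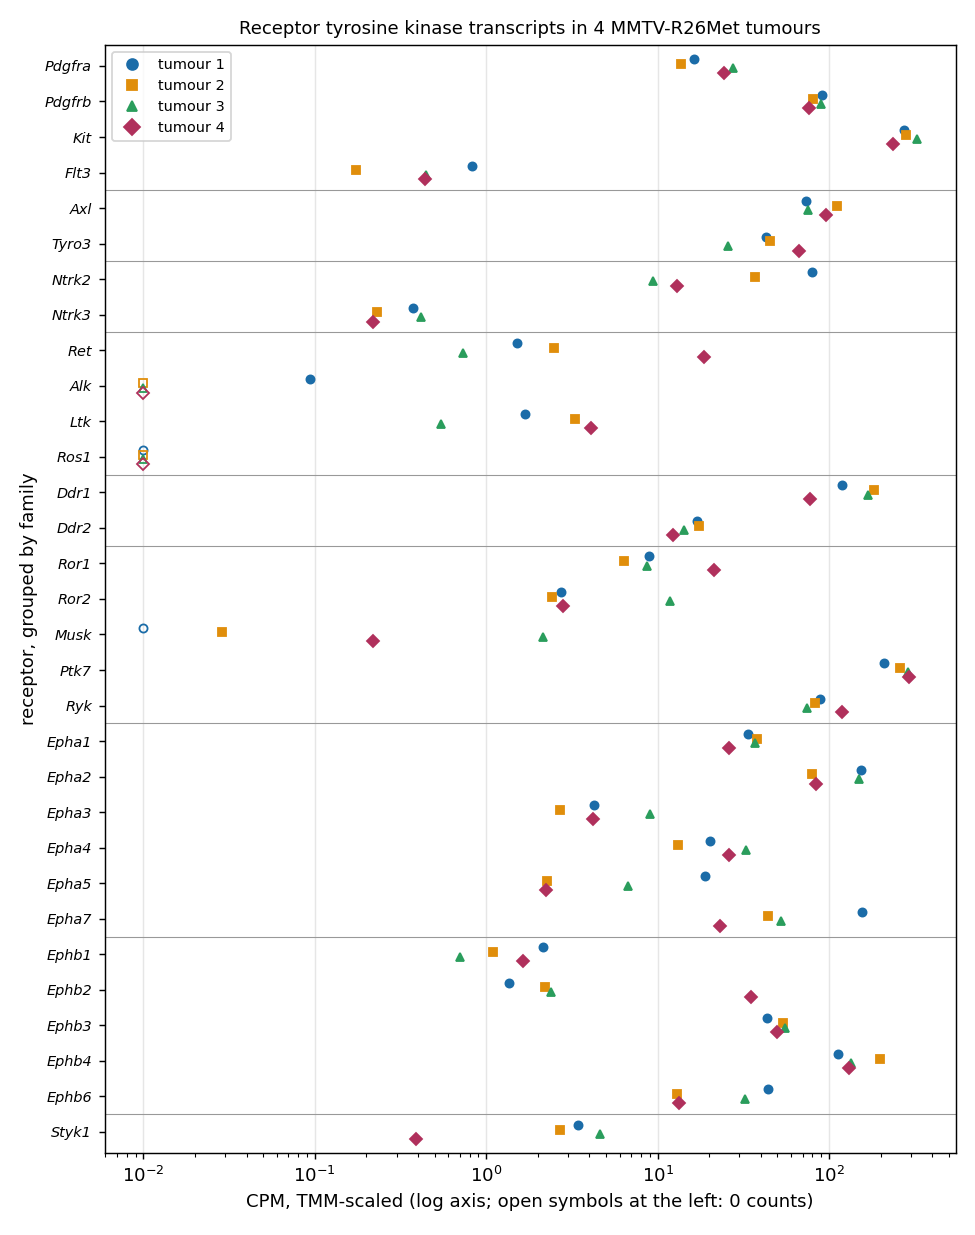
CPM of the 31 receptors in each tumour on a log axis, grouped by family, with 1 symbol per tumour and open symbols for 0 counts. Kit, Ptk7 and Pdgfrb lie within narrow ranges, whereas Ephb2 and Ret reach 34.9 and 18.6 CPM in tumour 4 and stay at or below 2.48 CPM in the others.

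**Figure D3:**
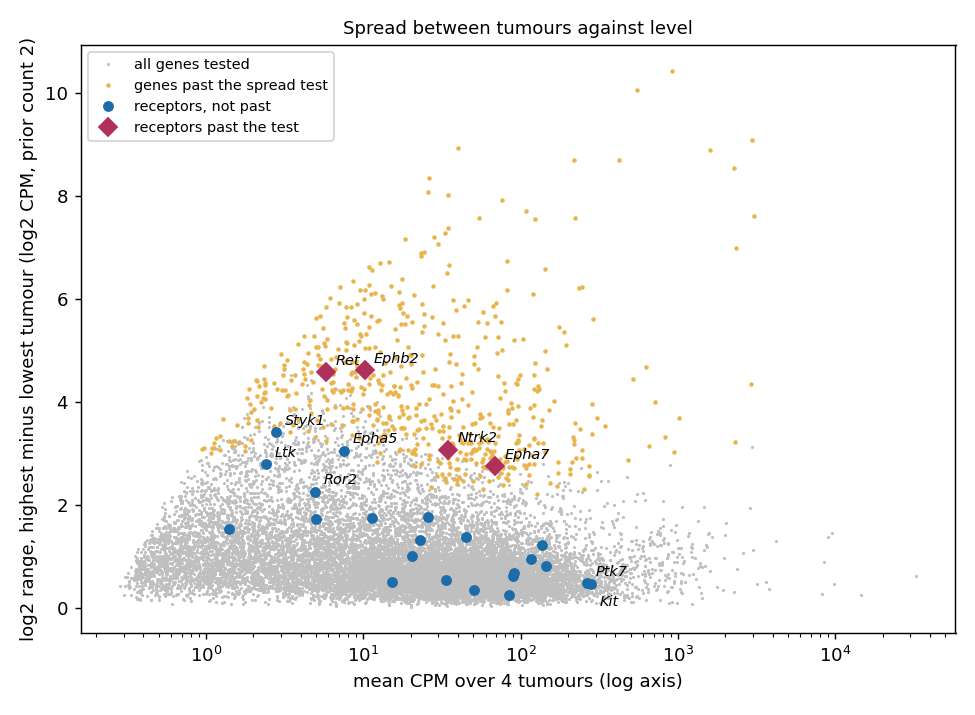
Mean CPM of each gene (log axis) against its log2 range, the highest minus the lowest tumour, for all 15808 genes tested and the 26 receptors among them. Ephb2, Ret, Ntrk2 and Epha7 lie among the genes past the spread test, and Ptk7 and Kit are the most abundant receptors with ranges of 0.48 and 0.46.

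Among the EPHB receptors, which bind mainly B-type ephrins, Ephb2 was high in tumour 4 alone. Ephb2 (Entrez gene 13844, chromosome 4, 136647536 to 136836326, GRCm38) had 1.36, 2.19, 2.40 and 34.9 CPM in tumours 1 to 4. Tumour 4 was 14.5 times the next tumour, and the other 3 lay close together (edgeR adjusted p = 4.67e-05). Without tumour 4 the adjusted p of edgeR was 1. Ephb4, a receptor of ephrin-B2 in veins and mammary epithelium, had 113, 198, 134 and 132 CPM and was highest in tumour 2 by 1.48 times. Ephb3, known from epithelial boundaries in the gut, stayed at 50.7 ± 5.32 CPM (SD, n = 4), and Ephb1 had 0.704 to 2.14 CPM. Ephb6, whose kinase domain is inactive, fell into a higher pair, with 44.3 CPM in tumour 1 and 32.1 in tumour 3, and a lower pair, with 13.0 in tumour 2 and 13.4 in tumour 4. That spread did not pass (edgeR adjusted p = 0.584). The neighbouring receptors thus differed in pattern: in tumour 4, where Ephb2 was highest, Ephb6 was near its lowest value and Ephb3 was at 49.4 CPM.

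Among the EPHA receptors, Epha7 and Epha5 were highest in tumour 1. Epha7 (Entrez gene 13841, chromosome 4, 28813066 to 28967503, GRCm38) had 156, 44.1, 52.4 and 23.0 CPM in tumours 1 to 4, a highest-to-lowest ratio of 6.77 (edgeR adjusted p = 0.0177). Epha7 no longer passed when tumour 1, 2 or 4 was left out (adjusted p = 1, 0.0528 and 0.117 in edgeR) or when a common dispersion was used (0.14). Epha5, a receptor best known from axon guidance, had 19.0, 2.25, 6.70 and 2.24 CPM, a ratio of 8.48 that did not pass (edgeR adjusted p = 0.12, and 0.0109 with a common dispersion and 0.0296 without tumour 3). Epha2, an epithelial receptor with ephrin-A1 as its main ligand, fell into 2 pairs, with 154 and 149 CPM in tumours 1 and 3 against 79.4 and 84.3 CPM in tumours 2 and 4 (edgeR adjusted p = 1). Epha1 stayed at 33.5 ± 5.37 CPM (SD, n = 4), although 6.97% of its exon length overlaps Zyx on the opposite strand, so that its reads are uncertain. Epha4 and Epha3 were both lowest in tumour 2, at 13.2 and 2.71 CPM, and highest in tumour 3, at 32.8 and 9.04 CPM. Of the EPH receptors outside the set, Epha6 had 0 counts in every tumour, and Epha8 and Epha10 had at most 1 and 3 counts in any tumour.

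Ephrin transcripts were present for both receptor classes. Of the A-type ephrins, Efna5 had 61.9, 76.6, 35.9 and 90.6 CPM and Efna1 36.2, 48.0, 29.1 and 56.9 CPM in tumours 1 to 4. Both were lowest in tumour 3 and highest in tumour 4, and neither passed the test (edgeR adjusted p = 1 for each). Efna4 had 15.1 to 24.3 CPM, whereas Efna3 stayed at or below 1.74 and Efna2 at or below 0.521 CPM. Of the B-type ephrins, Efnb2 was lowest in tumour 2 at 14.8 CPM, against 39.0, 48.7 and 53.9 CPM in tumours 1, 3 and 4 (edgeR adjusted p = 0.743). Tumour 2 was the tumour in which Ephb4, its receptor, was highest. Efnb1 varied little, at 19.9 ± 2.15 CPM (SD, n = 4), and Efnb3 had at most 1.03 CPM.

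RET, which signals for GDNF-family ligands once they are bound to a GFRA co-receptor, was the second receptor high in tumour 4 alone. Ret (Entrez gene 19713, chromosome 6, 118151748 to 118197744, GRCm38) had 1.51, 2.48, 0.730 and 18.6 CPM in tumours 1 to 4. Tumour 4 was 7.51 times the next tumour, and the ratio of highest to lowest was 25.5 (edgeR adjusted p = 0.00215). The call was lost without tumour 4 and with Holm adjustment (adjusted p = 1 and 0.601). Its co-receptor Gfra1 was also highest in tumour 4, at 6.14 CPM, against 2.38, 1.24 and 1.69 CPM in tumours 1 to 3, and did not pass (edgeR adjusted p = 0.991). Gfra4 ran the other way, with 7.83 and 3.47 CPM in tumours 1 and 3 and 0.490 and 0.365 CPM in tumours 2 and 4 (edgeR adjusted p = 0.00521). Gfra4 no longer passed when tumour 1, 2 or 4 was left out (adjusted p = 0.0584, 0.095 and 0.0954 in edgeR), nor with no count filter (0.0982). Of the ligands, Nrtn had 10.9 ± 2.03 CPM (SD, n = 4), Artn at most 0.999 CPM, Gdnf at most 12 counts and Pspn at most 1 count.

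Basal cell markers were highest in tumour 4, as Ephb2 and Ret were. Krt5, Krt14, Trp63 and Col17a1 summed to 8.42, 23.0, 31.96 and 253 CPM in tumours 1 to 4. All 4 of the 4 genes passed the spread test, and each was highest in tumour 4. In tumour 3 most of the sum was Krt14 (28.3 CPM), while Krt5, Trp63 and Col17a1 were lowest there, as Ret was. Ngfr, the low-affinity neurotrophin receptor, was highest in tumour 4, at 3.12 CPM, against 0.118, 0.0577 and 0.704 CPM in tumours 1 to 3. These low values rest on 5, 2 and 27 counts, and Ngfr was not part of the main spread test. Fibroblast markers summed to 2525, 2967, 3422 and 3713 CPM, most of it Col1a1, Col1a2 and Col3a1, and 0 of 6 passed (edgeR, and 0 also at an unadjusted p of 0.05). Col1a1, Col1a2 and Lum were highest in tumour 4, Col3a1 and Col6a1 in tumour 3, and Dcn in tumour 2. Luminal progenitor markers (Elf5, Aldh1a3, Cd14 and Csn3) summed to 192, 3963, 1152 and 8212 CPM, most of it the milk protein gene Csn3 in tumours 2 to 4, and 2 of the 4, Aldh1a3 and Csn3, passed. Without Csn3 the sums were 153, 374, 213 and 555 CPM. Elf5 and Aldh1a3 were highest in tumour 4, and Cd14 in tumour 2. Luminal markers summed to 2288, 3568, 3015 and 3864 CPM, and 1 of the 5, Krt19, passed. Krt19 had 11.6, 147, 40.8 and 370 CPM (edgeR adjusted p = 1.96e-08). Krt19, Krt8 and Cdh1 were highest in tumour 4, and Krt18 and Epcam in tumour 2. The part of any of these cell types in the levels of Ephb2 and Ret was not tested.

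**Figure D4:**
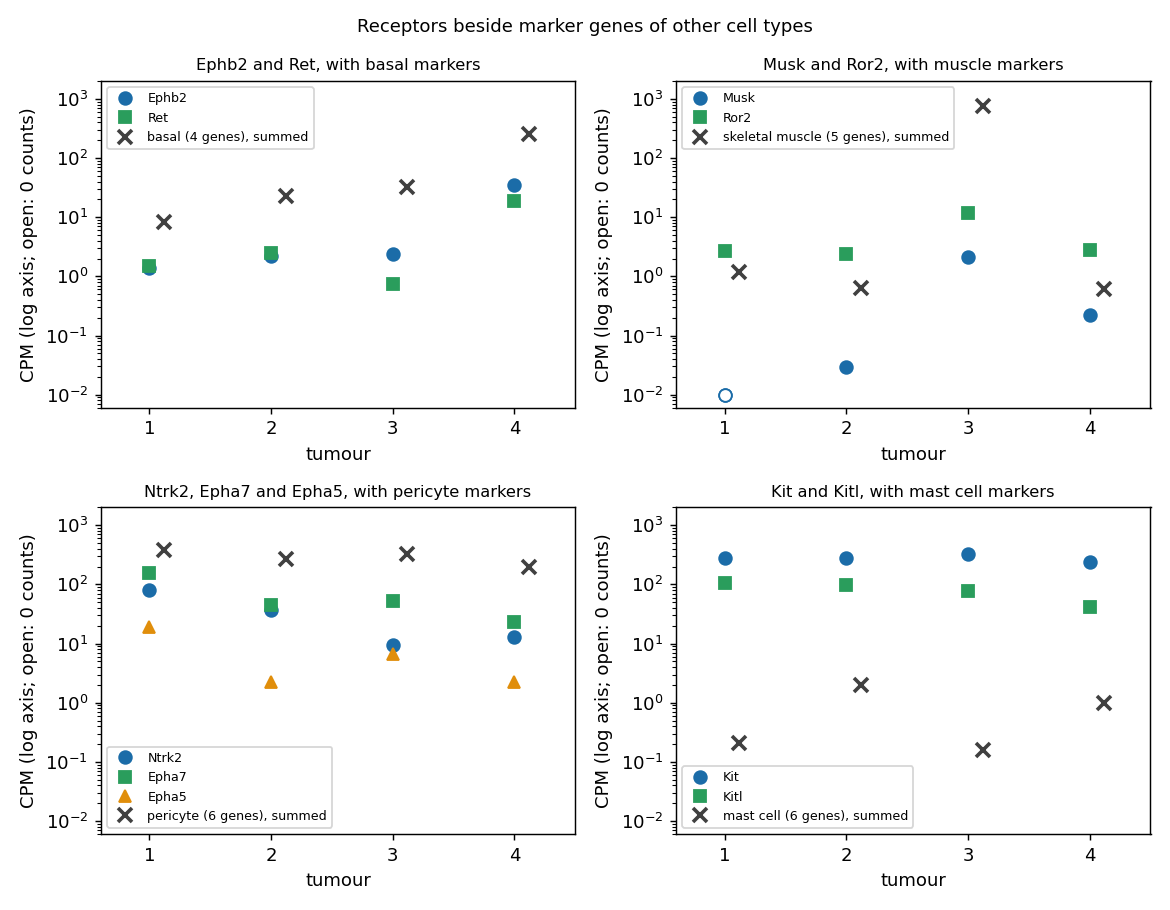
CPM of selected receptors (coloured symbols) and summed CPM of marker lists (crosses) in tumours 1 to 4, on log axes with open symbols for 0 counts. Ephb2, Ret and the basal list are highest in tumour 4, Musk, Ror2 and the skeletal muscle list in tumour 3, and the mast cell list stays at or below 2.02 CPM where Kit has 236 to 325 CPM.

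Alk, Ltk and Ros1 were scarce, while Alkal2, a ligand of Alk and Ltk, was not. Alk, a receptor of developing neurons, had 4 counts in tumour 1 and 0 in the others, which allows up to 0.0865, 0.0782 and 0.0731 CPM in tumours 2 to 4. Ros1 had 0 counts throughout. Ltk, the close relative of Alk, had 1.69, 3.29, 0.547 and 4.09 CPM in tumours 1 to 4 (edgeR adjusted p = 0.639). Their ligand Alkal2 had 122, 35.2, 123 and 0.195 CPM, so that it was near absent in tumour 4, where Ltk was highest. With 8 counts in tumour 4 it missed the count minimum and was not part of the main spread test. The other ligand, Alkal1, had 0 counts in all 4 tumours. Pleiotrophin and midkine, growth factors for which Alk has been named as 1 of several receptors, each stood apart in a different tumour. Ptn reached 45.0 CPM in tumour 3, while tumours 1, 2 and 4 had 7.996, 4.01 and 5.87 CPM (edgeR adjusted p = 0.00472). Mdk reached 17.4 CPM in tumour 1, while tumours 2 to 4 had 0.865, 1.46 and 2.02 CPM (edgeR adjusted p = 0.00328). Neither passed once its highest tumour was left out (adjusted p = 1 for each in edgeR), or once tumour 2 was (0.0649 for Ptn and 0.0578 for Mdk).

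Of the neurotrophin receptors, Ntrk2 was expressed and Ntrk3 nearly absent. Ntrk2 (Entrez gene 18212, chromosome 13, 58806472 to 59133970, GRCm38), the receptor of BDNF and neurotrophin-4, had 79.4, 36.8, 9.38 and 12.96 CPM in tumours 1 to 4. The 4 tumours formed a graded series in which tumour 1 was 2.16 times tumour 2. The ratio of highest to lowest was 8.46 (edgeR adjusted p = 0.0038, lost without tumour 1 at 0.634 and with Holm adjustment at 1). Ntrk3 had 8 to 16 counts per tumour. The Ntrk2 ligand Ntf5 varied little, at 6.42 ± 1.06 CPM (SD, n = 4). Bdnf was highest in tumour 3, at 7.19 CPM, where Ntrk2 was lowest, with 2.14, 0.663 and 2.14 CPM in tumours 1, 2 and 4 (edgeR adjusted p = 0.287, and 0.0454 with a common dispersion). Sort1, a sorting receptor that also binds neurotrophin precursors, had 120, 120, 176 and 127 CPM and the highest mean per kb of exon (19.7 CPM) of the co-receptors and partners listed. Ntrk2, Epha7 and Epha5 shared tumour 1 as the highest. So did Pdgfrb, Epha2, Ephb1 and Ephb6, in all 7 of the 26 members tested, against 22.9% of all genes tested. Pericyte markers summed to 379, 268, 332 and 201 CPM in tumours 1 to 4, and 1 of the 6 genes, Des, passed the test, with its maximum in tumour 3. Without Des, a gene of muscle too, the sums were 374, 261, 208 and 196 CPM. Kcnj8 had 56.5, 42.8, 15.6 and 15.002 CPM (edgeR adjusted p = 0.276) and Abcc9 121, 58.7, 47.2 and 43.01 CPM (edgeR adjusted p = 0.866), both highest in tumour 1. Rgs5 was highest in tumour 1 too, with 138, 99.9, 65.2 and 83.3 CPM. The remaining markers differed: Cspg4 had 31.8, 28.2, 45.4 and 21.9 CPM and Notch3 27.1, 31.3, 35.1 and 32.6 CPM. Both were highest in tumour 3, and Notch3 was lowest in tumour 1. Endothelial markers summed to 143, 107, 130 and 86.9 CPM, with 0 of 4 past the test (edgeR, and 0 also at an unadjusted p of 0.05). The part of these cells in the levels of Ntrk2, Epha7 and Epha5 was not tested.

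Kit and Pdgfrb varied little, and Pdgfra more. Kit had 275, 282, 325 and 236 CPM in tumours 1 to 4, and Pdgfrb, the receptor of pericytes for PDGF-B, had 91.0, 80.8, 89.3 and 76.5 CPM. The ratio of highest to lowest was 1.38 for Kit and 1.19 for Pdgfrb. Kit is also a receptor of mast cells. The 6 mast cell markers summed to 0.212, 2.02, 0.156 and 0.999 CPM in tumours 1 to 4, and 3 of them, Cpa3, Fcer1a and Ms4a2, had 0 counts in at least 1 tumour. The part of mast cells in the level of Kit was not tested. Elf5, 1 of the 4 listed markers of luminal progenitors, had 104, 189, 71.4 and 387 CPM. Elf5, Aldh1a3 and Csn3 were highest in tumour 4, and Cd14 in tumour 2. The part of luminal progenitors in the level of Kit was not tested. Kitl, which encodes stem cell factor, had 105, 97.1, 78.2 and 41.9 CPM and was lowest in tumour 4, as Kit was (edgeR adjusted p = 1 for both). Pdgfra, a receptor of fibroblasts, had 16.3, 13.7, 27.6 and 24.5 CPM, higher in tumours 3 and 4 (edgeR adjusted p = 1), with 5.54% of its exon length shared with other genes. Of the PDGF ligands Pdgfc had the highest mean per kb of exon (26.4 CPM), with 93.1 ± 7.73 CPM per gene (SD, n = 4), and Pdgfb was highest in tumour 2 at 65.9 CPM, with 23.2, 27.5 and 32.03 CPM in tumours 1, 3 and 4 (edgeR adjusted p = 1). Flt3, a receptor of dendritic cell precursors, had 35, 6, 17 and 18 counts, and its ligand Flt3l had 1.24 ± 0.153 CPM (SD, n = 4). Dendritic cell markers summed to 45.3 to 59.1 CPM, most of it Itgax, which macrophages also express. Zbtb46 had 5.86, 4.36, 7.40 and 8.43 CPM in tumours 1 to 4, and Siglech 2.09, 0.346, 0.495 and 0.779 CPM. Xcr1 had at most 1.38, Cd209a at most 0.692 and Clec9a at most 0.353 CPM. The part of dendritic cells in the level of Flt3 was not tested.

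Axl and Tyro3 bind GAS6 and act in the uptake of dying cells, and Tyro3 also binds protein S. Axl had 73.0, 112, 75.3 and 96.2 CPM in tumours 1 to 4, and Tyro3 had 42.7, 45.1, 25.6 and 66.3 CPM, with its lowest value in tumour 3 and its highest in tumour 4 (edgeR adjusted p = 1 for both). Mertk, the related receptor of macrophages, had 18.3 to 37.2 CPM and was highest in tumour 4 as well. Gas6 likewise had its lowest value in tumour 3 (87.8 CPM) and its highest in tumour 4 (250 CPM), against 126 CPM in each of tumours 1 and 2. Pros1, which encodes protein S, ran the other way, with 732 CPM in tumour 3 and 297 in tumour 4. None of these 5 genes passed the test (edgeR adjusted p = 1 for each).

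Of the collagen receptors, Ddr1 was higher than Ddr2 per kb in every tumour. Ddr1, which is known from epithelial cells, had 119, 182, 168 and 77.9 CPM in tumours 1 to 4 and was lowest in tumour 4, with 5.27% of its exon length overlapping a gene on the opposite strand. Ddr2, known from mesenchymal cells, had 17.1, 17.4, 14.2 and 12.2 CPM. Per kb of exon the mean level was 33.4 CPM for Ddr1 and 1.77 CPM for Ddr2, and per kb of coding sequence 50.02 and 5.94 CPM. Neither passed the test (edgeR adjusted p = 1 for both). Of the collagens listed, Col1a1 had 622, 753, 969 and 1326 CPM and Col4a1 1085, 736, 1004 and 425 CPM. In tumour 4, where both receptors were lowest, Col1a1 was at its highest and Col4a1 at its lowest, and neither passed (edgeR adjusted p = 1 for both).

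Ptk7, Ryk, Ror1 and Ror2 are receptors or co-receptors of non-canonical WNT signalling, and MuSK organises the junction between nerve and muscle. Ptk7 had 209, 261, 289 and 292 CPM in tumours 1 to 4, and Ryk 88.7, 83.1, 74.7 and 119 CPM. Ror1 was highest in tumour 4, at 21.4 CPM, against 8.89, 6.37 and 8.71 CPM in tumours 1 to 3 (edgeR adjusted p = 1). Ror2 was highest in tumour 3, at 11.8 CPM, against 2.73, 2.42 and 2.80 CPM in tumours 1, 2 and 4 (edgeR adjusted p = 0.639). Both related receptors thus had 1 high tumour, and it was not the same tumour. Wnt5b, the WNT5 ligand with the higher mean per kb of exon (26.4 CPM, against 1.00 CPM for Wnt5a), was highest in tumour 4 at 125 CPM, with 44.9, 69.5 and 40.5 CPM in tumours 1 to 3 (edgeR adjusted p = 0.65), and Wnt5a was also highest there at 12.03 CPM, with 6.61, 4.33 and 5.24 CPM in tumours 1 to 3 (edgeR adjusted p = 1).

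Musk had 0, 1, 82 and 9 counts in tumours 1 to 4. At 2.14 CPM in tumour 3 it was at least 30.3 times the floor of 3 counts in tumour 1. It missed the count minimum and was not part of the main spread test. Skeletal muscle markers were high in the same tumour. Myog, Ckm, Acta1, Myh4 and Chrna1 summed to 1.18, 0.635, 770 and 0.609 CPM in tumours 1 to 4, and Myog had 0 counts in tumours 1 and 2. Des, a filament gene of muscle that is also in the pericyte list, reached 124 CPM in tumour 3, while tumours 1, 2 and 4 had 4.49, 6.81 and 4.77 CPM (edgeR adjusted p = 3.77e-12). Agrn, which encodes the MuSK activator agrin, was abundant in all tumours at 353, 324, 392 and 478 CPM, and Lrp4, the agrin receptor that pairs with MuSK, had 89.9, 76.6, 38.6 and 39.4 CPM. Dok7, the adaptor of MuSK in muscle, had 4, 0, 21 and 1 counts and was highest in tumour 3 with Musk. Rapsn, also among the listed partners, had 0.470, 2.16, 1.33 and 1.29 CPM and was highest in tumour 2. Adipocyte markers (Adipoq, Plin1, Lep and Fabp4) summed to 15.5, 31.7, 91.3 and 8.67 CPM, with the maximum in tumour 3 resting on Fabp4. Without Fabp4 the sums were 0.3998, 5.86, 0.391 and 0.755 CPM, and Adipoq, Plin1 and Lep were each highest in tumour 2. The part of muscle or fat cells in the Musk and Ror2 levels was not tested.

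Styk1, a membrane-bound kinase with no sizeable domain outside the cell, had 3.41, 2.68, 4.64 and 0.390 CPM in tumours 1 to 4. Tumour 4 was the lowest, with 16 counts, against 93 to 178 counts in the others. The spread did not pass (edgeR adjusted p = 0.361).

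Of 51 ligands, partners and related receptors listed for these families, 36 had enough counts to be tested and 3 passed, Ptn, Mdk and Gfra4, against 3.63% of all genes tested. At an unadjusted p of 0.05, 5 of the 36 passed, against 8.74% of all genes tested. By list, 2 of 25 ligands, 1 of 9 co-receptors and partners and 0 of 2 related receptors passed, the last with 0 at an unadjusted p of 0.05. The median ratio of highest to lowest was 2.46 over the 36 genes and 1.72 over all genes tested.

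**Figure D5:**
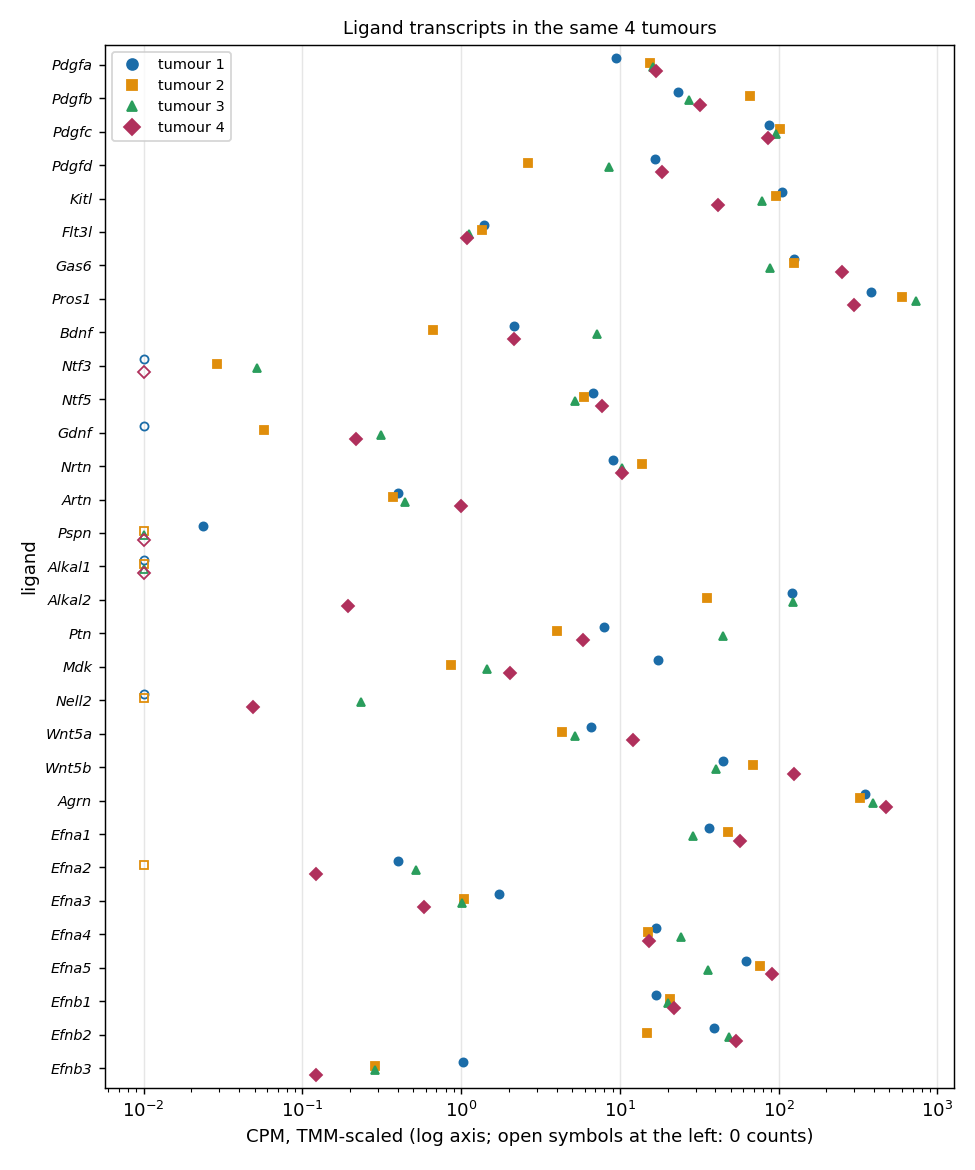
CPM of 31 ligands of these receptors, the 2 collagens left out, in each tumour on a log axis, with 1 symbol per tumour and open symbols for 0 counts. Of the ligands drawn, Pros1 and Agrn reach the highest CPM, and Alkal2 runs from 0.195 CPM in tumour 4 to 123 CPM in tumour 3.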

How the data were processed

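Poly-A RNA of 4 tumours was purified, fragmented, copied by random priming and sequenced as paired reads, per the labels' protocols. The authors deposited whole-number counts per Entrez gene, with no normalization applied. FastQC and the builds GRCm38 and mm10 were used, per the submitters' processing notes. Which aligner, counter and annotation were used, and if strand was, is not given in the sources used here. Reads of overlapping or antisense genes are therefore uncertain. Columns were matched to tumours by the number at the end of their names. Symbols came from RefSeq (GRCm38.p6) for 24480 of 28440 rows (97.86% of counts), and exon and coding lengths from GENCODE M21 for all 31 members.

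The software was edgeR 4.0.16 (R 4.3.3). The filter was filterByExpr (count cutoff 10 at the median library, all 4 libraries, total 15) and the scaling TMM. A negative binomial model with a single mean was fitted per gene using trended dispersions, and its residual deviance was compared with chi-square. With 1 group no quasi-likelihood contrast exists. The common biological coefficient of variation was 0.411. Log2 CPM used a prior count of 2. A count of 0 allows up to 3 counts, 0.0706 to 0.0865 CPM. Alternatives were RLE scaling, library size alone, other filters, a common dispersion, Holm adjustment, the genes that DESeq2 1.42.0 marks as dispersion outliers, prior counts of 0.5 and 5, and each tumour left out. Coding length, and marker sums without 1 gene, were added after seeing the data. A few listed genes are not reported here. Members and lists were chosen with earlier results of these data known. The genes named are all 31 members and, of the listed ligands, partners and markers, those past the test, the most abundant and those set beside a member; Des, Elf5 and Ptprc are markers among them.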

Additional observations from a re-analysis of the deposited data

Results flagged for a closer look

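In 6 members 1 tumour lay far from the other 3, by Dixon's ratio of the gap to the range, a rule that chance meets in about 1 of 20 groups. Of the 26 members tested for spread, 4 met it, against 7.83% of all genes tested. Ephb2 (34.9 CPM), Ret (18.6 CPM) and Ror1 (21.4 CPM) were highest in tumour 4. Ror2 (11.8 CPM) and Musk (2.14 CPM) were highest in tumour 3, and Alk (0.0941 CPM, from 4 counts) in tumour 1. Among the ligands, partners and related receptors reported, Ptn (45.0 CPM) and Sort1 (176 CPM) were far above the rest in tumour 3, Mdk (17.4 CPM), Pspn (0.0235 CPM) and Epha8 (0.0235 CPM) in tumour 1, and Artn (0.999 CPM) in tumour 4, while Pdgfa was far below the rest in tumour 1 (9.43 CPM). Pspn and Epha8 each rest on 1 count. Among the marker genes reported, those far above the rest in tumour 3 were Acta1 (343 CPM), Myh4 (334 CPM), Des (124 CPM), Ckm (87.0 CPM), Chrna1 (3.10 CPM) and Myog (2.82 CPM). In tumour 4 they were Krt5 (87.0 CPM), Trp63 (46.5 CPM) and Col17a1 (30.2 CPM), and in tumour 2 Adgre1 (66.1 CPM), Adipoq (3.72 CPM), Plin1 (1.36 CPM) and Fcer1a (0.0577 CPM).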

How the results depend on the processing

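The number of members past the spread test was 4 with TMM and 1 with Holm adjustment. With no filter, or with the count minimum required in 1 library, it was 5, the same 4 and Musk. DESeq2's dispersion outliers, a rule without a p-value, held 0 members, and with each tumour left out the number ran from 1 to 5. Over all genes the number was 574, against 895 with no filter, 945 with the count minimum required in 1 library, 198 with Holm adjustment and 91 by DESeq2, and 367 to 417 with a tumour left out. For ligands and partners it was 3, against 0 with Holm adjustment and 0 by DESeq2, and 0 to 2 with a tumour left out (edgeR at an unadjusted p of 0.05 gave 5 with all tumours). With no filter, or with the count minimum required in 1 library, it stayed at 3, but Alkal2 passed and Gfra4 did not. RLE scaling and library size alone gave the same 4 members by name, Ephb2, Ret, Ntrk2 and Epha7. With a common dispersion the number stayed at 4, but Epha5 passed and Epha7 did not. Ephb2 was the member past Holm adjustment (adjusted p = 0.00749). The share of counts held by the members averaged 0.158%, 0.176% when the 10 most abundant genes were left out of the total, and 0.153 to 0.162% with a tumour left out. The median fold over tested members was 2.53, and 1.76 to 2.31 with a tumour left out, a range built from 3 tumours instead of 4. Leaving out 1 tumour moved the mean CPM of 8 members by over 1.5 times. Without tumour 4 it was 1.58 in place of 5.84 for Ret and 1.996 in place of 10.2 for Ephb2. Without tumour 1 it was 19.8 in place of 34.6 for Ntrk2, 39.95 in place of 68.9 for Epha7, 3.74 in place of 7.55 for Epha5 and 0 in place of 0.0235 for Alk. Without tumour 3 it was 2.62 in place of 4.93 for Ror2 and 0.0812 in place of 0.596 for Musk. Counts of a few reads limit Alk, Ntrk3, Flt3 and Musk. No paired analysis was possible because the labels give 1 group.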
